A study of Mus musculus with 4 samples.

Results

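The ERBB receptors and 5 of their direct regulators were followed in breast cancer cells of MMTV-Neu mice that differ in Pak1. The members were 9 genes, namely the receptors Egfr, Erbb2, Erbb3 and Erbb4, the adaptors Shc1 and Grb7, and the restrainers Errfi1, Lrig1 and Cbl. They were found as the non-control probes whose gene name on the array is 1 of these symbols, which gave 13 of 39429 probes. No other probe was assigned to a member through its RefSeq accession.

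MMTV-Neu mice carry the Neu (Her2) oncogene behind the mouse mammary tumour virus promoter, and p21-activated kinase 1 (Pak1) is a serine/threonine kinase that acts below the small GTPases Rac and Cdc42. The 4 samples were tumour-derived cells, 2 from MMTV-Neu Pak1 -/- tumours and 2 from MMTV-Neu Pak1 +/+ tumours. All of them were grown in low calcium medium with 5% horse serum, kept without serum for 3 h and treated with EGF for 15 min, so that no value comes from cells without EGF. The series design gives different tumours as the source of the samples of a group, while the methods speak of cell lines derived from tumours, and the age of the mice was not given in the sources used here. Each sample was read on a single-colour Agilent array of 60-base probes, and values are given as normalized log2 intensities, in which a difference of 1 is a doubling. Levels of different probes cannot be set against each other on an array. All differences are Pak1 -/- minus Pak1 +/+.

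ERBB receptors are tyrosine kinases that pair with each other when a ligand such as EGF binds, and the phosphorylated tails then collect adaptors that lead to the Ras and PI3 kinase pathways. Erbb2 has no known ligand of its own and signals in pairs, Erbb3 has a weak kinase but a tail rich in docking sites for PI3 kinase, and Erbb2 gain is a driver of breast cancer. The signal is limited by inhibitors that bind the kinase and by ubiquitin ligases that send receptors to the lysosome.

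Pak1 itself did not separate the groups in the direction of the labels. Its probe (A_52_P663600, mm9 chromosome 7, 105060220 to 105060279) read 12.21 and 12.25 in the samples labelled Pak1 -/- against 12.04 and 12.04 in the others. At 0.19 (SE 0.07) the difference missed the threshold (limma adjusted p = 0.070), and under cyclic loess it passed (0.27, adjusted p = 0.027, where the alternatives together spanned 0.027 to 0.24). No source used here gives the deleted part of the gene, so the probe may lie outside it, and all groups below are those of the labels. Of 10 luminal epithelial markers 9 were well above background on all 4 arrays, among them Krt8, Epcam and Cdh1. Markers of other cell types were not all dim. Of 7 fibroblast genes 3 (Col1a1, Col1a2 and Pdgfra) were well above background on all 4 arrays and 4 (Col3a1, Pdgfrb, Dcn and Lum) on none. Of 6 leukocyte genes 4 (Ptprc, Cd68, Csf1r and Cd3e) were so on all arrays, with Csf1r at 10.57 or more and Cd3e at 11.34 to 11.70, and Lyz2 on none. Of 4 endothelial genes 2 (Kdr, at 12.99 to 13.27, and Pecam1, at 9.23 to 9.47) were so on all arrays and Emcn on none. The groups themselves stood well apart, since 51.9% of 27229 probes passed the threshold and correlations were 0.997 within each group and 0.954 to 0.959 between them across probes, which are not independent replicates.

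The promoters of Errfi1, Egfr and Erbb2 are shown because Errfi1 had the largest difference among the members and the receptors moved in opposite directions. The sequences are those of RefSeq (GRCm38.p6, plus strand in each case) and run from 250 bases before the annotated start to 30 bases after it. Capitals mark the cAMP response element TGACGTCA, the TATA box TATAAA and the GC box GGGCGG on either strand. For Errfi1, whose inhibitor protein is also known as Mig6, the downstream of its 2 listed starts is given (chr4:150854820-150855099), for Egfr its listed start (chr11:16751953-16752232), and for Erbb2 likewise (chr11:98412234-98412513).
Errfi1: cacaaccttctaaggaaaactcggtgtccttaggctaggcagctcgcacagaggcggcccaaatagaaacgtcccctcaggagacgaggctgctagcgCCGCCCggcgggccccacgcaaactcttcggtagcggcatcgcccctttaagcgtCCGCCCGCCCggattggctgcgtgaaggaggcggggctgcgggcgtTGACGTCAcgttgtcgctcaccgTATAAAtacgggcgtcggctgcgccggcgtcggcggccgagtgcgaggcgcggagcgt
Egfr: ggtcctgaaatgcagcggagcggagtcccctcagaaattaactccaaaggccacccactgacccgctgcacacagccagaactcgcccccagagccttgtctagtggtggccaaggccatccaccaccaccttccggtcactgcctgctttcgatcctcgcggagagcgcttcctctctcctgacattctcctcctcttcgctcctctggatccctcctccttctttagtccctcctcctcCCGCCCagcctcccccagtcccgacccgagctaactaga
Erbb2: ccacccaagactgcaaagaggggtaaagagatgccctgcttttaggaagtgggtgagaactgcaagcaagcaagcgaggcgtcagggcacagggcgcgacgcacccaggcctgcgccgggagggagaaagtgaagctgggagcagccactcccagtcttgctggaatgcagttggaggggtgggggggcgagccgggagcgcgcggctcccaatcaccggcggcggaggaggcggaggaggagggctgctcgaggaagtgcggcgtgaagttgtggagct

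The Errfi1 window held a cAMP response element 51 bases before the start, a TATA box 28 bases before it and GC boxes 152, 97 and 93 bases before it, of which the last 2 overlap. The Egfr window held a GC box 9 bases before its start and neither of the other motifs, and the Erbb2 window held none of them. Of 32851 promoters in the table, cut to the same length, 1.74% held TGACGTCA, 13.1% held TATAAA and 34.7% held GGGCGG on either strand. The GC content was 66.4% for Errfi1, 61.1% for Egfr and 65.4% for Erbb2. The table held 9 promoters of 7 members, and Erbb3 and Grb7 were not among them. A cAMP response element was found in no other of these 9 promoters. The upstream start of Errfi1 had a GC content of 41.1% and none of the motifs. Which Errfi1 start these cells used was not measured. A link between the motifs and the differences in level was not tested.

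Probes of the receptors are shown because calls on Egfr and Erbb3 rest on short stretches of transcript. Egfr was read by 3 probes, of which A_55_P1956863 lies at chr11:16783556-16783615 (mm9, plus strand), and Erbb3 by a single probe, A_55_P2119897, at chr10:128006424-128006483 (mm9, minus strand). Capitals in the Erbb3 probe mark a stop triplet at bases 58 to 60 when the probe is read from its first base.
Egfr A_55_P1956863: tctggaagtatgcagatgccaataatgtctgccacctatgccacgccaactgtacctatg
Erbb3 A_55_P2119897: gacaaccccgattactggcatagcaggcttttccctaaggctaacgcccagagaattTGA

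Of the 9 members, 8 were measured well enough to be tested, and 5 of them passed an adjusted p of 0.05 in limma. Egfr, Shc1 and Errfi1 were higher in Pak1 -/- cells, and Erbb2 and Erbb3 were lower. Lrig1, Grb7 and Cbl did not pass. These counts stand against a high background, as 51.0% of 22012 genes passed, 22.8% higher and 28.2% lower. The 2 groups were free of overlap for 7 of the 8 tested members and for 77.6% of all genes with 4 values. The median difference of the tested members was 0.18 against −0.055 over all genes, and the median size of the difference was 0.425 against 0.323. The members are thus described gene by gene, and nothing was read from their number. With 2 arrays a group, the number of arrays limits every value, and an exact permutation test of 2 against 2 samples cannot give a p below 0.333.

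**Figure D1:**
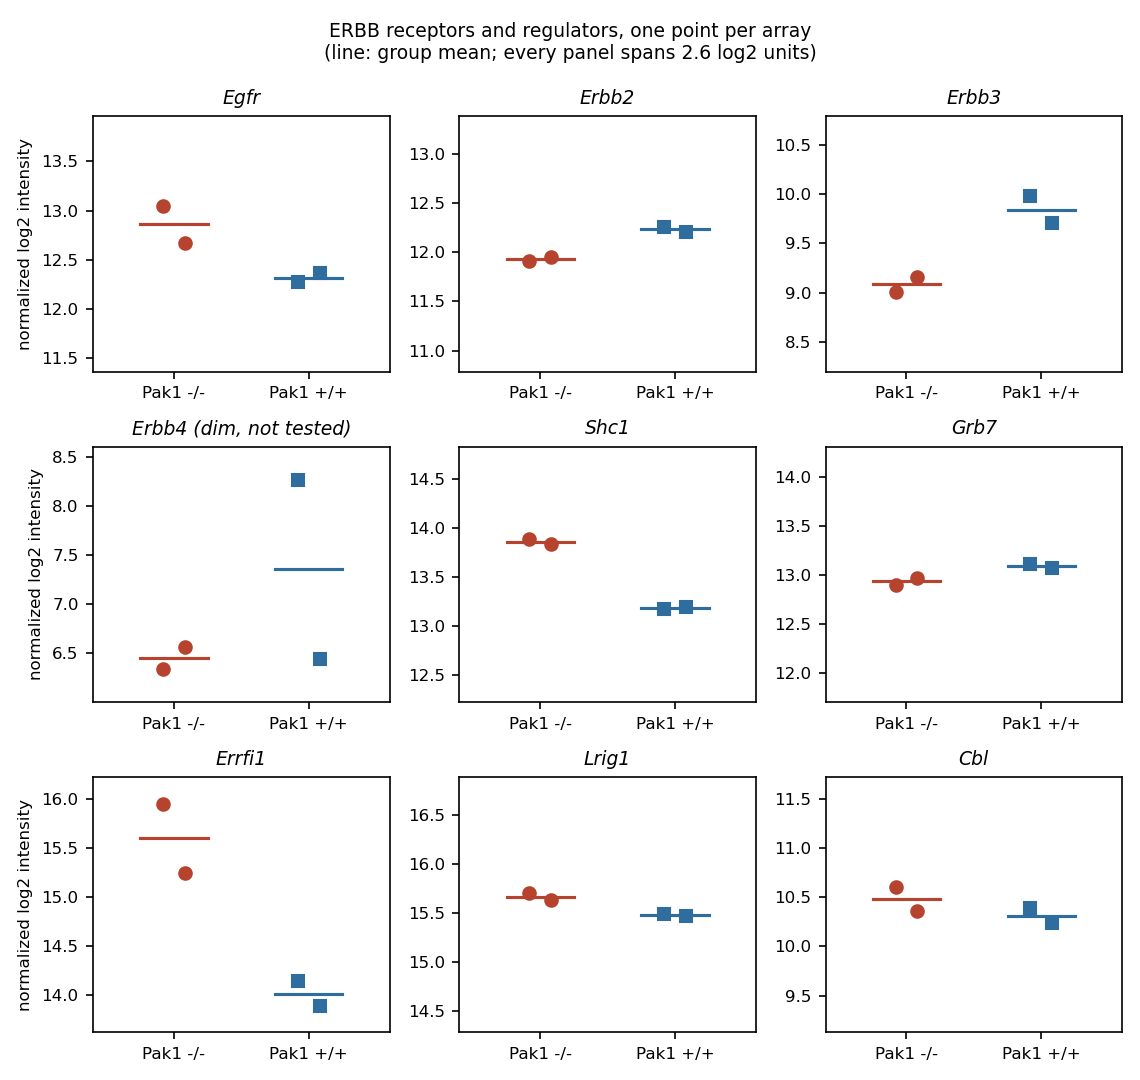
Normalized log2 intensity (vertical axis) of the brightest probe of each of the 9 members on each of the 4 arrays, with Pak1 -/- arrays as red circles, Pak1 +/+ arrays as blue squares and lines at the group means. Errfi1 lies at 15.24 and 15.95 in Pak1 -/- and at 13.89 and 14.14 in Pak1 +/+, and Cbl is the only tested member whose groups overlap.

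Egfr, the receptor of EGF itself, was higher in Pak1 -/- cells on all 3 of its probes. The brightest (A_52_P106259, chromosome 11, 16813815 to 16813874, listed for transcript variant 1) read 13.05 and 12.67 on the Pak1 -/- arrays and 12.27 and 12.36 on the Pak1 +/+ arrays. The groups did not overlap, and the Pak1 -/- arrays lay further from each other than the Pak1 +/+ arrays did. The means were 12.86 ± 0.27 and 12.32 ± 0.064 (SD, n = 2 each), which put Pak1 -/- higher by 0.55 (SE 0.14, 95% interval 0.16 to 0.93) or 1.46-fold (adjusted p = 0.032). This probe was printed in 10 spots an array, whose SD within an array was 0.12 to 0.17. Both other probes are listed for transcript variant 2 and gave smaller errors. A_55_P1956863 read 11.06 and 10.91 against 10.51 and 10.53, higher by 0.46 (SE 0.08, adjusted p = 0.010, at most 0.049 over the alternatives). A_55_P1956862 (chromosome 11, 16787172 to 16787231) read 10.18 and 10.05 against 9.69 and 9.68, higher by 0.43 (SE 0.08, adjusted p = 0.011), a call that missed the threshold without Pak1 +/+ replicate 1 (0.44, adjusted p = 0.050) and without Pak1 +/+ replicate 2 (0.43, adjusted p = 0.054), from a lowest value of 0.0048. The estimates of the 3 probes thus ran from 1.35-fold to 1.46-fold. They come from the same RNA samples and do not bound the rise, as the interval of the brightest probe was wider. The probes are also listed for different transcript variants, so they are not repeats of a single measurement. The call of the brightest probe was lost without Pak1 -/- replicate 1, where the difference was 0.36 (adjusted p = 0.055), without Pak1 +/+ replicate 1 (0.50, adjusted p = 0.10) and without Pak1 +/+ replicate 2 (0.59, adjusted p = 0.071), as well as with no filter on dim probes (adjusted p = 0.056). The alternatives spanned 0.013 to 0.10.

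Erbb2, the mouse gene for the receptor whose oncogene drives these tumours, was slightly lower in Pak1 -/- cells. Its probe (A_52_P49250, chromosome 11, 98298103 to 98298162) read 11.91 and 11.95 on the Pak1 -/- arrays and 12.26 and 12.21 on the Pak1 +/+ arrays, and the groups did not overlap. The difference was −0.31 (SE 0.07, 95% interval −0.49 to −0.12), or 1.24-fold lower (adjusted p = 0.020). The probe was printed in 10 spots, of which 9 or 10 were used on each array, with an SD of 0.044 to 0.11 within an array. On Pak1 -/- replicate 2 the spots ran from 11.73 to 12.03 and on Pak1 +/+ replicate 2 from 11.98 to 12.32, so that single spots of the groups did overlap where their medians of 11.99 and 12.27 did not. The call was lost without Pak1 -/- replicate 1 (−0.29, adjusted p = 0.066), Pak1 +/+ replicate 1 (−0.28, adjusted p = 0.11) or Pak1 +/+ replicate 2 (−0.33, adjusted p = 0.079), and the alternatives spanned 0.015 to 0.11. Whether this probe also detects the Neu transgene, which in the usual MMTV-Neu lines is the rat gene, is not given in the sources used here. A lower transcript level in a bulk sample cannot tell fewer cells with the transcript from less of it per cell, here and for every gene below.

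Erbb3, the partner of Erbb2 that docks PI3 kinase, had the larger fall of the receptors. Its probe read 9.01 and 9.16 on the Pak1 -/- arrays and 9.98 and 9.71 on the Pak1 +/+ arrays. Both Pak1 -/- arrays lay below both Pak1 +/+ arrays, by more than the replicates of either group differed from each other. The means were 9.09 ± 0.11 and 9.85 ± 0.20 (SD, n = 2 each), a difference of −0.76 (SE 0.12, 95% interval −1.09 to −0.43) or 1.69-fold lower (adjusted p = 0.0075). The call was kept under all 15 alternatives, with differences of −0.90 to −0.62 and adjusted p of 0.0045 to 0.049. Since Erbb3 has a single probe, which ends at the stop triplet shown above, no second position on the transcript was measured.

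Erbb4, a receptor of neuregulins tied to differentiation of the mammary gland, was near background. The probe A_55_P2119888 (chromosome 1, 68086686 to 68086745) read 6.40 and 6.46 on the Pak1 -/- arrays and 6.33 and 6.21 on the Pak1 +/+ arrays, and never rose well above background. The probe A_55_P2119892 (chromosome 1, 68078805 to 68078864) read 6.34 and 6.57 against 8.27 and 6.44. It was well above background on Pak1 +/+ replicate 1 and on no other array. The lowest level of any probe well above background was 6.55 to 7.03, depending on the array. Erbb4 was not tested and no fold is given.

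**Figure D2:**
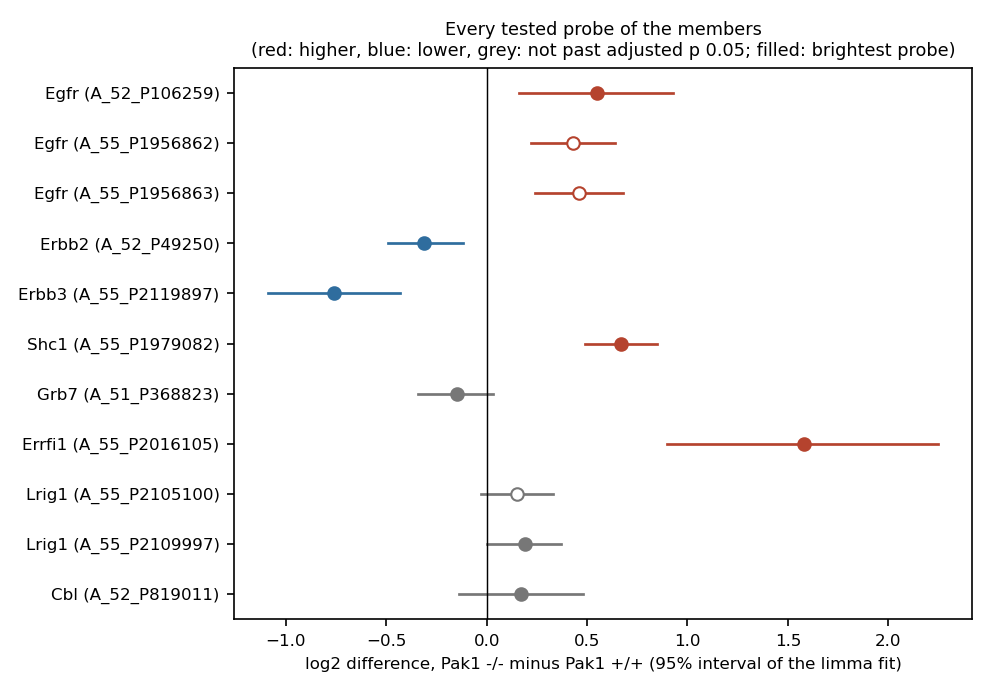
Log2 difference, Pak1 -/- minus Pak1 +/+ (horizontal axis), of the 11 tested probes of the members, with the 95% interval of the limma fit. Filled points are the brightest probe of a gene, red is higher, blue lower and grey not past an adjusted p of 0.05; the Egfr probes lie together between 0.43 and 0.55, and both probes of Lrig1 lie at 0.15 and 0.19.

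Shc1, the adaptor that binds phosphorylated ERBB tails and hands the signal to Grb2 and Ras, was higher in Pak1 -/- cells. Its probe (A_55_P1979082, chromosome 3, 89233868 to 89233927) read 13.88 and 13.83 on the Pak1 -/- arrays and 13.17 and 13.19 on the Pak1 +/+ arrays. The replicates were close in both groups and the groups did not overlap. The difference was 0.67 (SE 0.07, 95% interval 0.49 to 0.85), or 1.59-fold (adjusted p = 0.0019). It was called under all 15 alternatives, with differences of 0.62 to 0.76 and adjusted p of 0.0011 to 0.015. Grb7, an adaptor that lies beside Erbb2 on the chromosome and is gained with it in human tumours, read 12.90 and 12.97 on the Pak1 -/- arrays and 13.11 and 13.07 on the Pak1 +/+ arrays (A_51_P368823, chromosome 11, 98316616 to 98316675). The groups did not overlap, but the difference of −0.15 (SE 0.07, 95% interval −0.34 to 0.03) did not pass (adjusted p = 0.13).

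Errfi1, whose protein binds the ERBB kinase and blocks it and whose transcript is known to be induced by EGF, differed most among the members. Its probe (A_55_P2016105, chromosome 4, 150242886 to 150242945) read 15.95 and 15.24 on the Pak1 -/- arrays and 14.14 and 13.89 on the Pak1 +/+ arrays. The SD of the Pak1 -/- replicates was 0.50, wider than for any other tested member in either group, yet both lay above both Pak1 +/+ arrays. The means were 15.59 ± 0.50 and 14.02 ± 0.17 (SD, n = 2 each), a difference of 1.58 (SE 0.26, 95% interval 0.90 to 2.25) or 2.98-fold (adjusted p = 0.0075). The processed intensity before normalization was 51700 and 36200 against 17400 and 13700, and no array was saturated. All 15 alternatives kept the call. The smallest difference, 1.22, came without Pak1 -/- replicate 1 (adjusted p = 0.015) and the largest, 1.93, without Pak1 -/- replicate 2 (adjusted p = 0.0075), within 0.0025 to 0.025 over all of them. The Errfi1 probe lies on mm9 and the promoter shown above on GRCm38.p6, so that their coordinates cannot be compared.

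The other restrainers did not pass. Lrig1, a membrane protein that lowers ERBB receptor levels, was read by 2 probes. The brighter (A_55_P2109997, chromosome 6, 94554811 to 94554870) read 15.70 and 15.63 against 15.49 and 15.47, a difference of 0.19 (SE 0.07, adjusted p = 0.084). The other (A_55_P2105100, 94554523 to 94554582) read 14.41 and 14.46 against 14.29 and 14.29, a difference of 0.15 (SE 0.07, 95% interval −0.03 to 0.33, adjusted p = 0.14). The groups did not overlap on either probe. Under cyclic loess normalization both passed, at 0.32 (adjusted p = 0.021, alternatives spanning 0.021 to 0.33) and 0.24 (adjusted p = 0.038, alternatives spanning 0.038 to 0.41). Cbl, the ubiquitin ligase that sends active Egfr to the lysosome, read 10.61 and 10.36 on the Pak1 -/- arrays and 10.39 and 10.24 on the Pak1 +/+ arrays (A_52_P819011, chromosome 9, 43958124 to 43958183). The groups overlapped, and the difference was 0.17 (SE 0.12, 95% interval −0.14 to 0.48, adjusted p = 0.29). An unchanged Cbl level was not shown, since the interval reaches to 0.48.

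**Figure D3:**
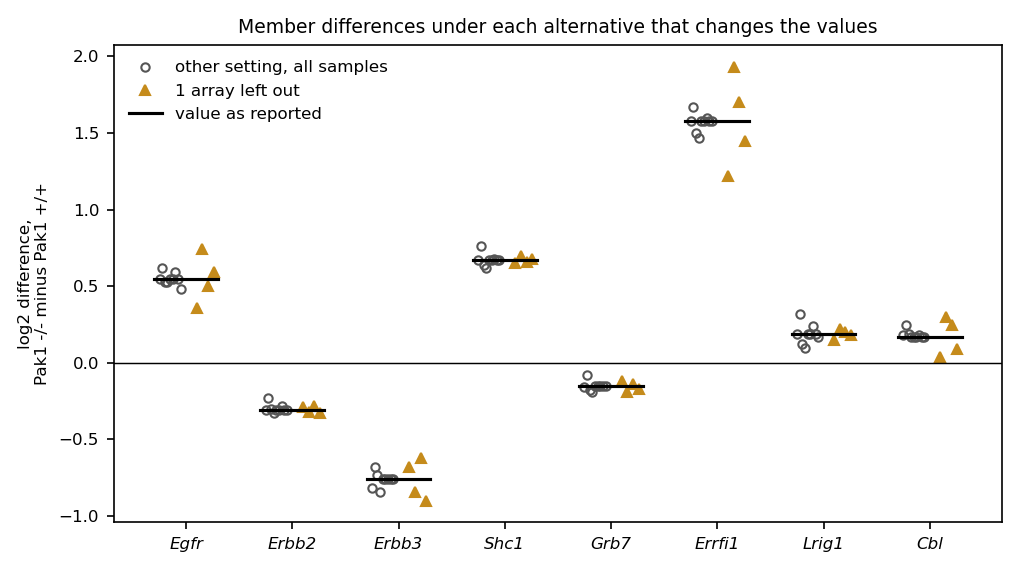
Log2 difference, Pak1 -/- minus Pak1 +/+ (vertical axis), of each tested member under each alternative setting except those that only moved the threshold. Circles are settings that used all samples, triangles are fits with 1 array left out, and the line is the value as reported. Errfi1 moved between 1.22 and 1.93 and Egfr between 0.36 and 0.74, both with an array left out, and no member changed sign.

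Markers of basal epithelial cells also differed between the groups, in 1 direction where the members went in both (the markers named here were chosen after their values were seen). Of 8 such genes 7 were tested and 6 were higher in Pak1 -/- cells, while 0 were lower. Their median difference was 1.69 against −0.055 over all genes. Beside these counts, 22.8% of all genes were higher and 28.2% lower. These shares also stand beside the marker counts below. Krt17, a basal keratin, read 14.09 and 13.64 against 8.85 and 9.05, and Krt14, another, 15.93 and 15.89 against 13.05 and 13.10. Myh11, a smooth muscle myosin of myoepithelial cells, never rose well above background. Smaller rises in the list were less steady. Krt5 (0.50, adjusted p = 0.028) did not pass without Pak1 -/- replicate 1 (0.39, adjusted p = 0.12), without Pak1 +/+ replicate 1 (0.38, adjusted p = 0.10) or with the processed signal (0.64, adjusted p = 0.058), from a lowest value of 0.018. Trp63 (0.43, adjusted p = 0.019) did not pass without Pak1 -/- replicate 1 (0.35, adjusted p = 0.077) or Pak1 +/+ replicate 2 (0.35, adjusted p = 0.089), from a lowest value of 0.010. The summed processed intensity of the basal list was 89800 and 88500 in Pak1 -/- and 20000 and 18200 in Pak1 +/+. Such a sum is not normalized and follows its brightest probes, so that it says little of the other genes of a list: on Pak1 -/- replicate 1, Krt14 gave 53100 and Krt17 15800 of the basal sum, and Krt8 343000 and Krt18 451000 of the luminal sum. The sum of the luminal list was 972000 and 1100000 against 1010000 and 973000, with 4 genes higher, 1 lower and 5 not past the threshold. That share of luminal calls is close to the 51.0% over all genes. The luminal calls were unsteady over the 12 alternatives that refitted the probes. Krt18 changed its call in 7 of them and read 0.04 under either scaling to the 75th percentile (adjusted p = 0.69 and 0.72). Krt8 did not pass with the processed signal (0.27, adjusted p = 0.060), Ehf did not pass without Pak1 -/- replicate 2 (0.58, adjusted p = 0.076), and Elf3, the lower gene, changed its call in 10. Epcam passed as lower in 3, while Cdh1, the epithelial cadherin, was higher by 1.19 and changed its call in 0. The fibroblast list summed to 928 and 759 against 601 and 553, with 1 gene higher, 0 lower and 2 not past the threshold and a median difference of 0.03. Col1a1 was the higher gene (1.12, adjusted p = 0.0051), beside Col1a2 at 0.03 (adjusted p = 0.82) and Pdgfra at −0.16 (adjusted p = 0.20). The leukocyte list summed to 5240 and 5360 against 4410 and 4960, but 0 genes were higher and Ptprc was lower (−0.45, adjusted p = 0.0056), with 3 not past the threshold. The endothelial list summed to 9520 and 9860 against 8960 and 10300, with 3 genes tested, which did not pass. The part of these differences in the member results was not tested.

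The wider pathway was followed in the adaptors and relays below the receptors. Of 31 listed genes 28 were tested, of which 11 were higher, 6 lower and 11 not past the threshold, beside 22.8% higher and 28.2% lower over all genes, with a median difference of −0.01 against −0.055 over all genes. Grb10 and Ptk6 never rose well above background. Gab1, a docking protein that carries PI3 kinase and Shp2 to Egfr, rose most in the list, from 10.20 and 10.12 in Pak1 +/+ to 11.22 and 11.22 in Pak1 -/- (1.06, SE 0.07, adjusted p = 0.00067). Nck1, an adaptor to the actin machinery that also binds Pak1, was higher by 0.59 (adjusted p = 0.0035), and Rasa1, a GTPase activating protein that switches Ras off, by 0.51 (adjusted p = 0.013). Without Pak1 +/+ replicate 1, Rasa1 no longer passed (0.46, adjusted p = 0.060, the highest over the alternatives, of which the lowest was 0.0065).

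Eps8, an Egfr substrate that links the receptor to Rac and actin, had the largest fall among the adaptors and relays. It read 12.90 and 13.08 on the Pak1 -/- arrays and 15.15 and 14.79 on the Pak1 +/+ arrays, a difference of −1.98 (SE 0.15, adjusted p = 0.00091), and its second probe gave −1.96. Grb14, an adaptor of the same family as Grb7, read 9.82 and 9.55 against 11.17 and 10.98, a difference of −1.39 (SE 0.13, adjusted p = 0.0015). Sos2, an exchange factor that loads Ras with GTP, was lower by 0.83 on the log2 scale (difference −0.83, adjusted p = 0.0019), and its homologue Sos1 did not pass (−0.27, adjusted p = 0.063; chosen after its value was seen). The count of higher genes in this list depended on single arrays. It was 6 without Pak1 -/- replicate 1, 7 without Pak1 -/- replicate 2, 3 without Pak1 +/+ replicate 1 and 5 without Pak1 +/+ replicate 2, whereas 4 to 6 genes were lower in these fits.

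**Figure D4:**
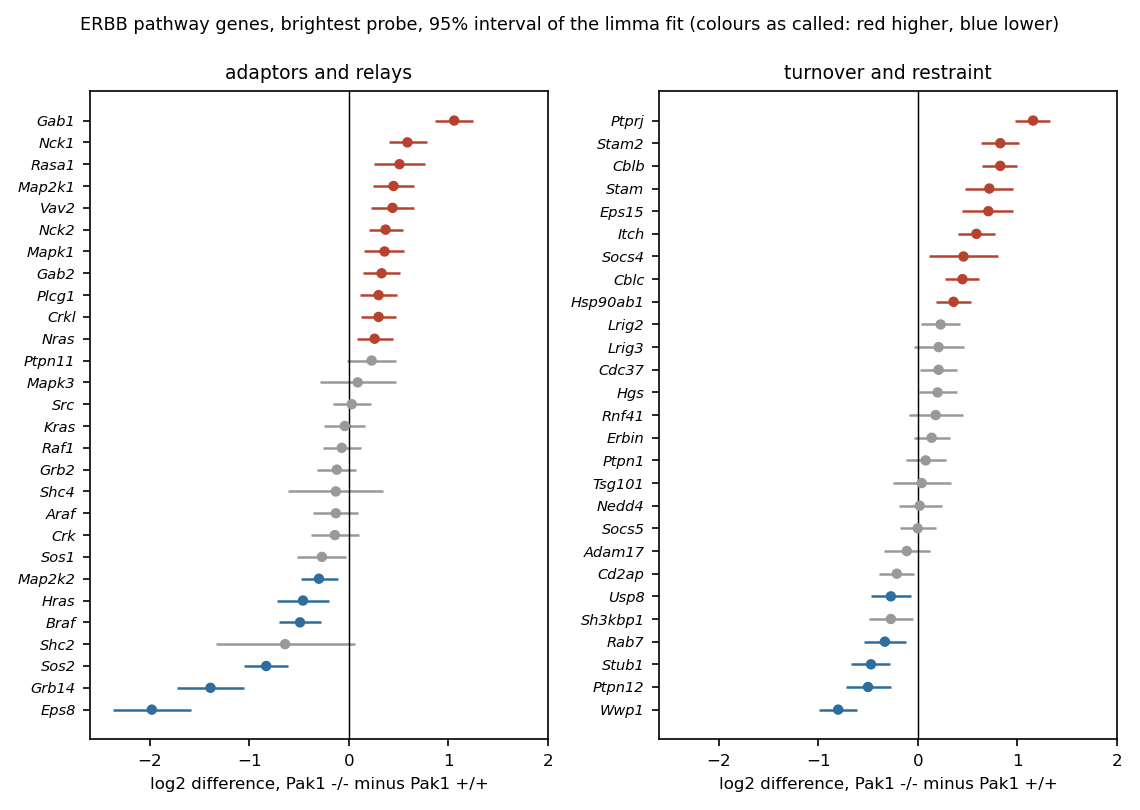
Log2 difference, Pak1 -/- minus Pak1 +/+ (horizontal axis), with the 95% interval of the limma fit, for the tested genes of the adaptors and relays (left, 28 genes) and of the genes for receptor turnover and restraint (right, 27 genes). Red genes were called higher and blue genes lower; Eps8 and Grb14 lie at −1.98 and −1.39, and Gab1 and Ptprj at 1.06 and 1.16.

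A list of genes for the turnover of ERBB receptors was followed next. Most of them restrain or remove receptors, but it also holds the chaperone Hsp90ab1 and its partner Cdc37, which stabilise Erbb2, the deubiquitinase Usp8, the Erbb2-binding scaffold Erbin and Adam17, which sheds ERBB ligands. Hsp90ab1 (0.36) is among the higher and Usp8 (−0.27) among the lower genes counted here, both named after their values were seen, and their calls changed in 4 and 9 of the 12 alternatives that refitted the probes. Those of Hsp90ab1 included the fits without Pak1 +/+ replicate 1 (0.33, adjusted p = 0.078), without Pak1 +/+ replicate 2 (0.39, adjusted p = 0.052) and under both scalings to the 75th percentile, where its difference was 0.09 with the normexp intensities (adjusted p = 0.43) and 0.05 with the processed signal (adjusted p = 0.64), over a range of 0.0091 to 0.64, and those of Usp8 included every fit that left out an array (−0.33 to −0.22, adjusted p = 0.081 to 0.18). All 27 listed genes were tested, with 9 higher, 5 lower and 13 not past the threshold, beside 22.8% higher and 28.2% lower over all genes. Their median difference was 0.18. Ptprj, a receptor phosphatase that removes phosphate from Egfr, read 13.11 and 13.09 on the Pak1 -/- arrays and 11.93 and 11.95 on the Pak1 +/+ arrays. It was higher by 1.16 (SE 0.07, adjusted p = 0.00046), and its 4 probes gave differences of 0.83, 0.97, 1.07 and 1.16, all past the threshold. Cblb, a ubiquitin ligase related to Cbl, was higher by 0.83 (adjusted p = 0.0010) on its brightest probe, but a second probe gave 0.17 and did not pass (adjusted p = 0.12). Stam2, part of the complex that sorts ubiquitinated receptors on endosomes, was higher by 0.83 (adjusted p = 0.0013).

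Among the genes of turnover that fell, Wwp1, a ubiquitin ligase that acts on Erbb4, read 9.47 and 9.44 against 10.29 and 10.21, a difference of −0.80 (adjusted p = 0.0014). Ptpn12, a phosphatase that opposes ERBB signals, had a difference of −0.50 (adjusted p = 0.0088), and Stub1, a chaperone-bound ubiquitin ligase that acts on Erbb2, of −0.47 (adjusted p = 0.0068). The number of lower genes in this list was 3 in place of 5 without Pak1 -/- replicate 1, without Pak1 +/+ replicate 1, without Pak1 +/+ replicate 2 and under cyclic loess, and the number of higher genes was 7 to 12 over the same settings.

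Genes beside Erbb2 were measured because the region is gained as a block in human tumours. Of 18 neighbours 3 were higher, 7 lower and 8 not past the threshold, with a median difference of −0.11. The 10 that passed are a share close to the 51.0% over all genes. Mien1, the nearest downstream of Erbb2, with its probe 1.2 kb away, read 14.57 and 14.83 against 14.84 and 14.79, which did not pass (−0.11, SE 0.11, adjusted p = 0.43). Pgap3, the nearest upstream, at a probe position of −48.0 kb, a protein that remodels lipid anchors, was higher by 0.60 (SE 0.08, adjusted p = 0.0047). Further upstream, Pnmt at −49.3 kb did not pass (−0.07, adjusted p = 0.55). Tcap at −52.0 kb and Stard3 at −56.2 kb were lower (−0.48, adjusted p = 0.031, and −0.72, adjusted p = 0.023). Stard3 did not pass without Pak1 +/+ replicate 1 (−0.69, adjusted p = 0.072) or replicate 2 (−0.76, adjusted p = 0.056), within 0.0090 to 0.072 over the alternatives. Tcap did not pass without Pak1 -/- replicate 1 (−0.59, adjusted p = 0.053), Pak1 -/- replicate 2 (−0.37, adjusted p = 0.12) or Pak1 +/+ replicate 1 (−0.36, adjusted p = 0.11), nor with no filter (0.054) or the processed signal (0.090), within 0.013 to 0.12. Pnmt, Tcap and Stard3 were chosen after their values were seen. Med24, a subunit of the Mediator complex, read 13.69 and 13.81 against 16.50 and 16.42, a difference of −2.71 (SE 0.08, adjusted p = 0.00011), and its second probe gave −2.77. Csf3, the cytokine G-CSF, whose probe lies beside that of Med24, had a difference of −1.97 (adjusted p = 0.00037) and Ppp1r1b, an inhibitor of protein phosphatase 1, of −2.20 (adjusted p = 0.0011).

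The smaller rises among the neighbours were Thra, a thyroid hormone receptor, at 0.35 (adjusted p = 0.045) and Ikzf3, a zinc finger factor of lymphocytes, at 0.26 (adjusted p = 0.047). Thra did not pass without Pak1 -/- replicate 1 (0.23, adjusted p = 0.10), Pak1 +/+ replicate 1 (0.32, adjusted p = 0.15) or Pak1 +/+ replicate 2 (0.37, adjusted p = 0.11). It also did not pass with an offset of 0 (adjusted p = 0.059), with the replicate block (0.060), with the processed signal (0.065) or with no filter (0.076), over a range of 0.023 to 0.15. Ikzf3 did not pass without Pak1 -/- replicate 1 (0.24, adjusted p = 0.13), Pak1 -/- replicate 2 (0.27, adjusted p = 0.10), Pak1 +/+ replicate 1 (0.20, adjusted p = 0.22) or Pak1 +/+ replicate 2 (0.32, adjusted p = 0.086). It also did not pass when the normexp intensities were scaled to the 75th percentile of each array (adjusted p = 0.068), with no filter (0.080) or with the replicate block (0.082), over a range of 0.025 to 0.22. Accordingly, 1 neighbour was higher without Pak1 -/- replicate 1 and without either Pak1 +/+ array. Fbxl20, chosen after its values were seen, had probes that moved in opposite directions (−0.82 and 0.51, adjusted p = 0.016 and 0.015), so its direction is uncertain. By its brighter probe it is counted above among the lower neighbours.

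**Figure D5:**
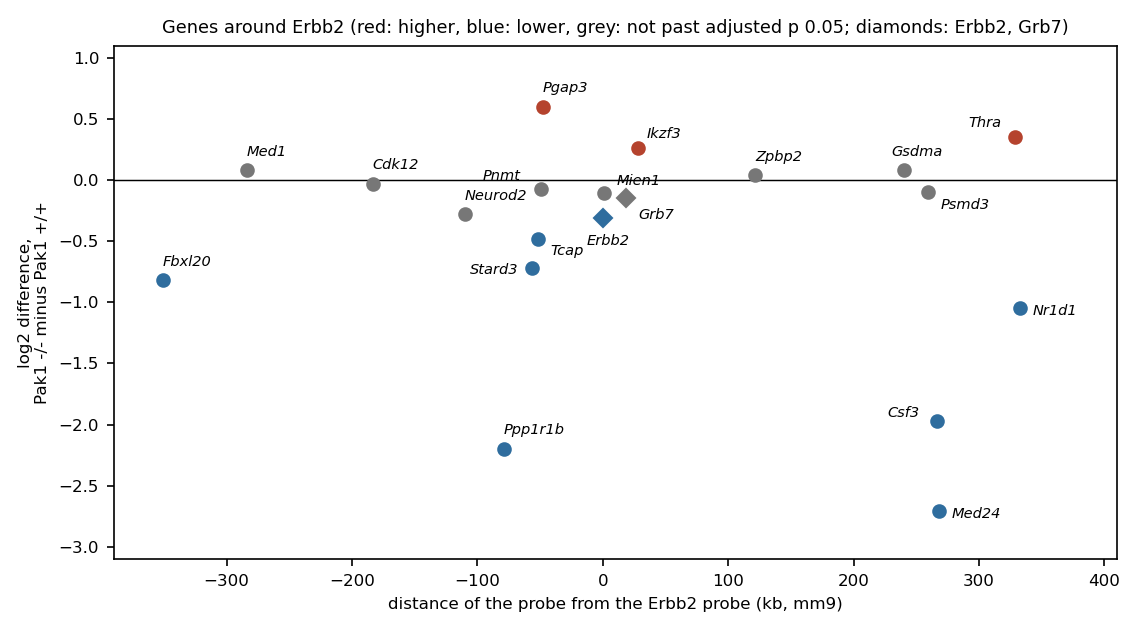
Log2 difference, Pak1 -/- minus Pak1 +/+ (vertical axis), of the genes around Erbb2 against the distance of their probe from the Erbb2 probe in kb (horizontal axis, mm9), with Erbb2 and Grb7 as diamonds and called genes in red (higher) and blue (lower). Differences of either sign lie side by side along the region, from Pgap3 at 0.60 to Med24 at −2.71.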

How the data were processed

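Total RNA of 4 samples of MMTV-Neu tumour-derived cells was hybridised to single-colour (Cy3) Agilent arrays, 1 per sample and all on 1 slide, with the Pak1 -/- samples at the first positions, and slide position cannot be told apart from genotype. Spot intensities on a linear scale, with no normalization across arrays, were deposited as written by the scanner software (Feature Extraction 9.5.3.1 per the file headers). A further deposited table gives the authors' log2 values, which their methods describe as normexp corrected and quantile normalized, with values in 24008 rows. It was used as an alternative. Each scanner file was here corrected with normexp (offset 50) in limma 3.58.1 (R 4.3.3), and the log2 values of 43020 non-control spots were quantile normalized. Spots with outlier flags were left out and the others averaged for each of 39429 probes. The 27229 probes that were well above background on 2 or more of the 4 arrays were fitted with lmFit and eBayes (moderated, two-sided, genotype as the only term, 2 residual and 2.62 prior degrees of freedom), and p-values were adjusted over all of them by Benjamini-Hochberg (threshold 0.05). The offset raises dim intensities and understates their change. The script was tested on simulated data.

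The samples of a group came from different tumours by the series design and were taken as its replicates. The median spot intensity was 322 to 331 over a background of 39 to 42, and 62.2% to 70.4% of probes were well above background. The brightest probe over the 4 arrays stood for a member. For the other genes, in the lists and in the shares over all genes, it was the brightest tested probe where any was tested. Of 32334 probes with an accession, 26055 were named through a RefSeq table of GRCm38.p6, and names in the file were used for the rest (Mien1 under an older name). Probe positions are those of the files (mm9). Named genes were every member with every probe and, of each pathway list, the 3 largest rises and falls past the threshold, with the nearest neighbour of Erbb2 on each side. The members and lists were chosen with earlier results of these data known. Alternatives were the offset, the normalization, the filter, the authors' table, the threshold, the mean over a gene's probes, a replicate block and leaving out each array. The study's human cells were not used here.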

Additional observations from a re-analysis of the deposited data

How the results depend on the processing

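No tested member changed sign under any of the 15 alternatives. Erbb3, Errfi1, Shc1, Grb7 and Cbl kept their side of the threshold under all of them. Not every alternative could change a result, here and wherever the 15 are counted above. Those that only moved the threshold kept the main fit and its signs. A gene past the adjusted threshold could not fail at an unadjusted p under 0.05. For a gene with a single probe, the mean over probes repeats the same difference. The call of Erbb2 was also lost at an adjusted p under 0.01, as was that of Egfr, so that 1 member was lower and 2 were higher there, and 8878 probes passed in place of 14132. Under cyclic loess the median difference of the members was 0.28 in place of 0.18, 4 members were higher (Lrig1 passed, as it did without adjustment), and 52.4% of called probes were higher in place of 44.9%. With each array left out in turn, where the remaining single sample was assumed to vary like the opposite group, 2 to 3 members were higher, 1 to 2 lower, their median difference was 0.10 to 0.26 and 10314 to 12172 probes passed. No label pairs samples by replicate number, and the replicate 2 minus replicate 1 differences of both groups had an r of −0.028 across probes, which are not independent replicates. With the replicate number as a replicate block 13202 probes passed, 3 members were higher and 2 lower, with a median of 0.18. The cause of these moves was not tested. Probes near background, such as those of Erbb4, give no usable difference at this signal.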
